A study of Mus musculus with 20 samples.

Results

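The genes described here encode the nuclear subunits of the oxidative phosphorylation system, together with complex I assembly factors that share their name stem, measured in the liver of male C57BL/6J mice after long exposure to 137Cs gamma rays. Members were taken by symbol: every gene with a probe set of a single symbol that starts with Nduf, Uqcr, Atp5, Cox4, Cox5, Cox6, Cox7 or Cox8, and Sdha, Sdhb, Sdhc, Sdhd and Cyc1, each represented by its probe set with the highest mean signal over all 20 arrays. This gave 91 of 18193 genes, of which 86 passed the filter on low signal among 11206 genes tested. The 86 were 33 of 34 complex I genes, 8 of 8 complex I assembly factors, 4 of 4 complex II genes, 9 of 9 complex III genes, 15 of 19 complex IV genes and 17 of 17 ATP synthase genes. Cox4i2, Cox8b, Cox6b2, Cox7b2 and Ndufb4 did not pass, and Ndufa11 and Ndufs6 were not members because their probe sets carry several symbols. Ndufa4 and Ndufa4l2 were counted with complex IV, where the Ndufa4 protein resides.

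Mice were 8 weeks old when irradiation began. In experiment 1, which lasted 485 days, dose rates were 0.042, 0.858 and 16.6 mGy per day, and cumulative doses were 20.6, 416 and 8030 mGy. In experiment 2, which lasted 401 days, they were 0.05, 1.00 and 20.0 mGy per day and 20, 401 and 8015 mGy. From lowest to highest they are the low, medium and high levels. Each irradiated group had 3 mice on 1 array each, and each experiment had a single control array of pooled RNA from unirradiated mice, 3 mice in experiment 1 and 6 in experiment 2. A pool shows no spread between its mice, so comparisons with control rest on 2 arrays and on the spread measured among the irradiated mice.

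Oxidative phosphorylation is the last stage of respiration in the inner mitochondrial membrane. Complex I oxidises NADH and complex II oxidises succinate; both reduce ubiquinone, complex III passes the electrons on to cytochrome c, and complex IV passes them to oxygen. Complexes I, III and IV pump protons, and the ATP synthase uses the gradient to make ATP. Most subunits are nuclear genes, which hepatocytes express strongly, while a few core subunits come from the mitochondrial genome and are not members. Several complex IV subunits exist as a liver or ubiquitous isoform and a heart and muscle isoform.

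Nuclear respiratory factor 1 (NRF1) and the ETS-family factor GABP are known regulators of many of these genes, so the 250 bases before each start site were searched on both strands for a core of each factor's motif, GCATGCGC for NRF1 and CTTCCGG for the ETS family. Promoters were found in RefSeq (GRCm38.p6) for 74 of the 91 members. The NRF1 core was present in 8 of them (10.8%), against 2.56% of 27025 genes, and the ETS core in 14 (18.9%), against 7.83%. The 27025 were genes with a RefSeq promoter, not only the 11206 tested, and were not matched to the members in signal. The promoters below are those that hold either core among the 12 members with the 6 largest rises and the 6 largest falls between the experiments, described further on; motif letters are in capitals, and overlapping NRF1 matches on the 2 strands form the palindrome-like run in Cox6a1 and Ndufaf4. A match describes letters in this window and is not a binding site. Cox6a1 lies at chr5:115348959-115349208 on the minus strand, Ndufaf4 at chr4:24897833-24898082 on the plus strand and Ndufb6 at chr4:40279422-40279671 on the minus strand.
Cox6a1: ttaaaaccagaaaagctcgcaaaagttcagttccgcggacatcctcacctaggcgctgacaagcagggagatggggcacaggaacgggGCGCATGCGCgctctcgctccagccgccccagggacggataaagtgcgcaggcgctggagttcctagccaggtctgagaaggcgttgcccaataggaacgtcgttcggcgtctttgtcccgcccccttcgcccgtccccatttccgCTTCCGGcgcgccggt
Ndufaf4: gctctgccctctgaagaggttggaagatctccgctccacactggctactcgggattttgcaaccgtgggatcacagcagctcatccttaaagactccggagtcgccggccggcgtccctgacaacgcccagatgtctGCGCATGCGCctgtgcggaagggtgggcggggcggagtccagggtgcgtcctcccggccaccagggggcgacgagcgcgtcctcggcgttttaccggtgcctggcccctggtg
Ndufb6: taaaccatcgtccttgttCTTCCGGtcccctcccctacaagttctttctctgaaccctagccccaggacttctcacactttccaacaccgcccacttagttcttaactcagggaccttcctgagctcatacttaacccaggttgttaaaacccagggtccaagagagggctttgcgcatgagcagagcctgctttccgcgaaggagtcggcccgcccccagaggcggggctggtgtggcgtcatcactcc

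All 20 arrays had the same mean signal after trimming, array medians ran from 81.3 to 104.8, and no 2 arrays were identical. Hepatocyte markers were strong on every array, with Alb between 51940 and 85180 and a summed signal of 7 markers between 337300 and 476200. Skeletal muscle markers were dim, with a sum of 5 markers between 176.7 and 440.5, and cardiac muscle markers summed to between 54.2 and 388.5. The 4 brown fat markers summed to between 15900 and 29410, nearly all from Elovl3 (9095 to 22060) and Cidea (1969 to 10060), while Ucp1, which defines brown fat, lay between 2.65 and 62.3 and Dio2 between 11.4 and 115.5. Summed signals over the 20 arrays ran from 9125 to 15120 for Kupffer cell markers, 2691 to 4698 for endothelial, 6851 to 12610 for stellate and 240 to 575.3 for cholangiocyte markers. Levels in whole liver cannot tell fewer cells of a type from less RNA per cell.

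Members had high and steady signals. The median SD of log2 signal within groups was 0.124 for members and 0.236 for all genes tested, and it was 0.11 for cytosolic and 0.14 for mitochondrial ribosomal proteins. By complex it ran from 0.103 for the ATP synthase to 0.153 for complexes II and IV. The most variable member of each complex was Ndufa4l2 (SD 0.805), a paralog of Ndufa4, in complex IV, Ndufb1 (0.421) in complex I, Atp5md (0.278) in the ATP synthase, Ndufaf2 (0.237) among the assembly factors, Sdhb (0.226), the iron-sulfur subunit, in complex II, and Uqcr10 (0.209) in complex III. In complex IV the dim probe sets of Cox6a2 (0.535), Cox7a1 (0.356) and Cox7c (0.289) also varied more than Atp5md. The probe sets of Ndufa4l2 (mean signal 92.2, close to the filter at 84.9) and Ndufb1 (347) were dim too. Probe sets differ in affinity, so the following signals describe probe sets and do not rank RNA amounts. The highest mean signals within each complex were those of Uqcrb (54659), Cox6a1 (40248), Atp5g3 (39730), Ndufa13 (24358), Sdhb (19553) and Ndufaf8 (3056). The lowest among genes tested outside complex IV included Atp5mpl (9149), Uqcrc1 (9615), Sdhd (8871) and Ndufaf5 (318), while Ndufb4 (39.7) and Cox7b2 (19.0) were below the filter.

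Probe sets of the tissue isoforms of complex IV fell into a bright and a dim set. The ubiquitous or liver isoforms Cox4i1, Cox6a1, Cox6b1, Cox7a2 and Cox8a had means of 28896, 40248, 32328, 36061 and 7968. The alternative isoforms Cox4i2, Cox6a2, Cox6b2, Cox7a1, Cox8b and Cox8c had means of 62.9, 112, 39.9, 222, 43.2 and 460. Of these, Cox8c, Cox7a1 and, by a small margin, Cox6a2 lay above the highest array median (104.8). Cox4i2, Cox6b2 and Cox8b lay under the lowest (81.3). Detection above background was not assessed for these alternative isoforms. Cox7c, a single-isoform subunit, was represented by a dim probe set as well (mean 155), so its differences have wide errors.

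**Figure D1:**
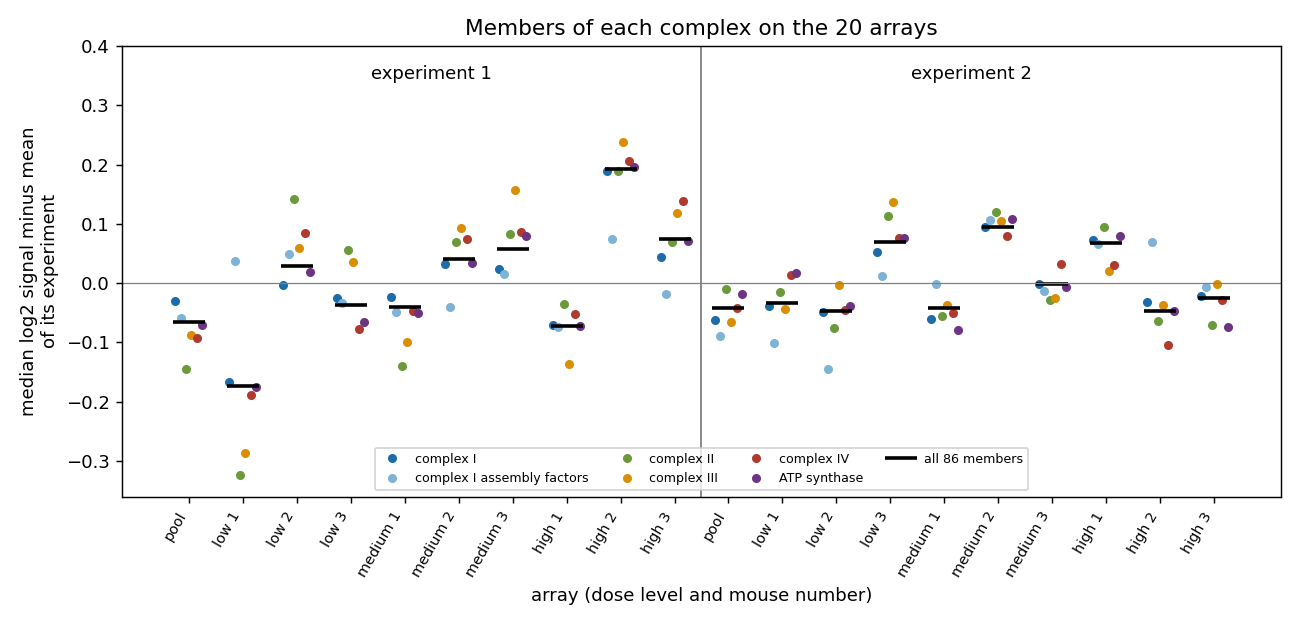
Median log2 signal of the members of each complex (coloured points) and of all 86 members (black bars) on each array, minus the mean of its experiment (y axis, log2), for 10 arrays of each experiment (x axis). Complexes I, II, III, IV and the ATP synthase lie together on most arrays, with the high mouse 2 of experiment 1 at 0.193 and the low mouse 1 of experiment 1 at -0.174.

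The comparison with control asks whether irradiated mice differ from unirradiated ones. At the high level, no member passed an adjusted p of 0.05 in limma, against 0.0803% of all genes, and 1 member had an unadjusted p under 0.05, against 7.24% of all genes. Differences were small: 82 of 86 members (95.3%) lay within 0.25 of control on the log2 scale, against 70.6% of all genes. These shares were not matched for signal or error, and the median SE was 0.105 for members and 0.193 for all genes. The 95% intervals of 80 of the 86 lay within 1.5-fold in either direction. In the signals as scaled by the authors 73 of 86 members were above control, with a median log2 difference of 0.09 against 0.01 for all genes, but with every array centred on its median the same median was -0.01 with 36 of 86 above control. That centring shifted the median of all genes to -0.09, which, since centring moves every gene alike, left the members' median relative to all genes at 0.08. Quantile normalization gave a median of 0.04 with 62 of 86 above control, and without the high mouse 2 of experiment 1 the median was 0.05 with 63 above.

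By complex, the median log2 difference from control at the high dose rate was 0.06 for complex I, 0.07 for its assembly factors, 0.11 for complex II, 0.13 for complex III, 0.09 for complex IV and 0.08 for the ATP synthase. With arrays centred on the median the values for complex I, the assembly factors, complex IV and the ATP synthase were -0.04, -0.03, -0.01 and -0.02, and those for complexes II and III were 0.01 and 0.03. Ndufc2, an accessory subunit in the membrane arm of complex I, had the smallest p. Its signal was 14799 in the control pool of experiment 1 and 15174, 19457 and 18691 in the high mice, and 12240 in the pool of experiment 2 and 14701, 13495 and 14316 in the high mice. All 6 high mice were above the pool of their experiment, by 0.23 ± 0.11 (SE; limma, adjusted p = 0.671). The other members named by rule, none of which passed, were Ndufb9 (0.21 ± 0.11) and Ndufa6 (0.15 ± 0.09), both accessory subunits, on the higher side, and Cox6a2 (-0.39 ± 0.45), Atp5md (-0.15 ± 0.20) and Cox8c (-0.14 ± 0.20) on the lower side. Cox8c was at 0.14 without the control pool of experiment 2 and -0.42 without that of experiment 1.

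At the medium dose rate no member passed (0.0357% of all genes), and 1 had an unadjusted p under 0.05 (6.05% of all genes). The median was 0.06 with 69 of 86 members above control, and it was -0.03 with arrays centred on the median and 0.02 after quantile normalization. Ndufaf7, an assembly factor of complex I, had the smallest p. Its signal was 608.6 in the pool and 707.6, 734.6 and 819 in the medium mice of experiment 1, and 498.2 in the pool and 612.5, 784.4 and 606.6 in those of experiment 2. All 6 medium mice were above their pool, by 0.35 ± 0.14 (limma, adjusted p = 0.732). Weighting each array by the number of mice on it gave 0.36 with an adjusted p of 0.0487, the one member past the threshold in that fit, which counts 9 pooled mice as if each had been measured. Ndufv2, a core subunit of the NADH-oxidising module, was at 0.16 ± 0.08 and Ndufb9 at 0.18 ± 0.11, while Ndufaf4 was at -0.17 ± 0.12, Cox7a1 at -0.33 ± 0.30 and Atp5md at -0.17 ± 0.20.

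At the low dose rate no member passed (0.00892% of all genes) and 0 members had an unadjusted p under 0.05 (3.87% of all genes). The median was 0.02 with 60 of 86 members above control, and -0.07 with 13 above with arrays centred on the median. Single arrays moved it: it was -0.0029 with 40 above without the low mouse 3 of experiment 2 and 0.05 without the low mouse 1 of experiment 1, and 0.01 without the low mouse 2 or the pool of experiment 1. Cox7c, at 0.50 ± 0.31, had a signal of 89 in the pool of experiment 1 against 143.9, 249.5 and 149.1 in its low mice. In experiment 2 it was 158 in the pool and 118.9, 225.6 and 175.4 in the low mice, which lay on both sides of the pool, and without the pool of experiment 1 the difference was -0.09, against 1.10 without that of experiment 2. Ndufa6 was at 0.12 ± 0.09 and Ndufs3 at 0.13 ± 0.09, and Sdha, the flavoprotein of complex II, was at -0.10 ± 0.08, Ndufs7 at -0.10 ± 0.09 and Ndufab1 at -0.09 ± 0.09. The 3 comparisons with control share the same 2 pools.

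Within each experiment the members' median against its own single pool was 0.13 in experiment 1 and 0.05 in experiment 2 at the high level, 0.08 and 0.05 at the medium level, and 0.00 and 0.05 at the low level. Leaving out 1 mouse of a group moved these values by more than 1.5 times in every group, for example to 0.07 without the high mouse 2 of experiment 1 and to 0.00 without the high mouse 1 of experiment 2. Of 86 members, 68 and 58 were above the pool at the high level, 61 and 64 at the medium level and 44 and 69 at the low level. In experiment 1 the dim probe set of Cox7c had the smallest p at every level, at 1.04 ± 0.39 for high, 0.86 ± 0.39 for medium and 0.92 ± 0.39 for low, all against the one pool signal of 89. In experiment 2 the smallest p at the high level was that of Ndufb6, at 0.32 ± 0.14 (limma, adjusted p = 0.99978). Its pool had 5489 and its high mice 6796, 6908 and 6789, all above the pool, while in experiment 1 the pool had 12046 and the high mice 12157, 11999 and 11590, on both sides of it. Over both experiments the other Ndufb6 probe set was at -0.06 for high against control, against 0.15 for the one used. Ndufb10, another accessory subunit, was at 0.29 ± 0.13 in experiment 2. In experiment 1 it was at -0.06 ± 0.13, with 8143 in the pool and 7708, 8050 and 7702 in the high mice, all below the pool.

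**Figure D2:**
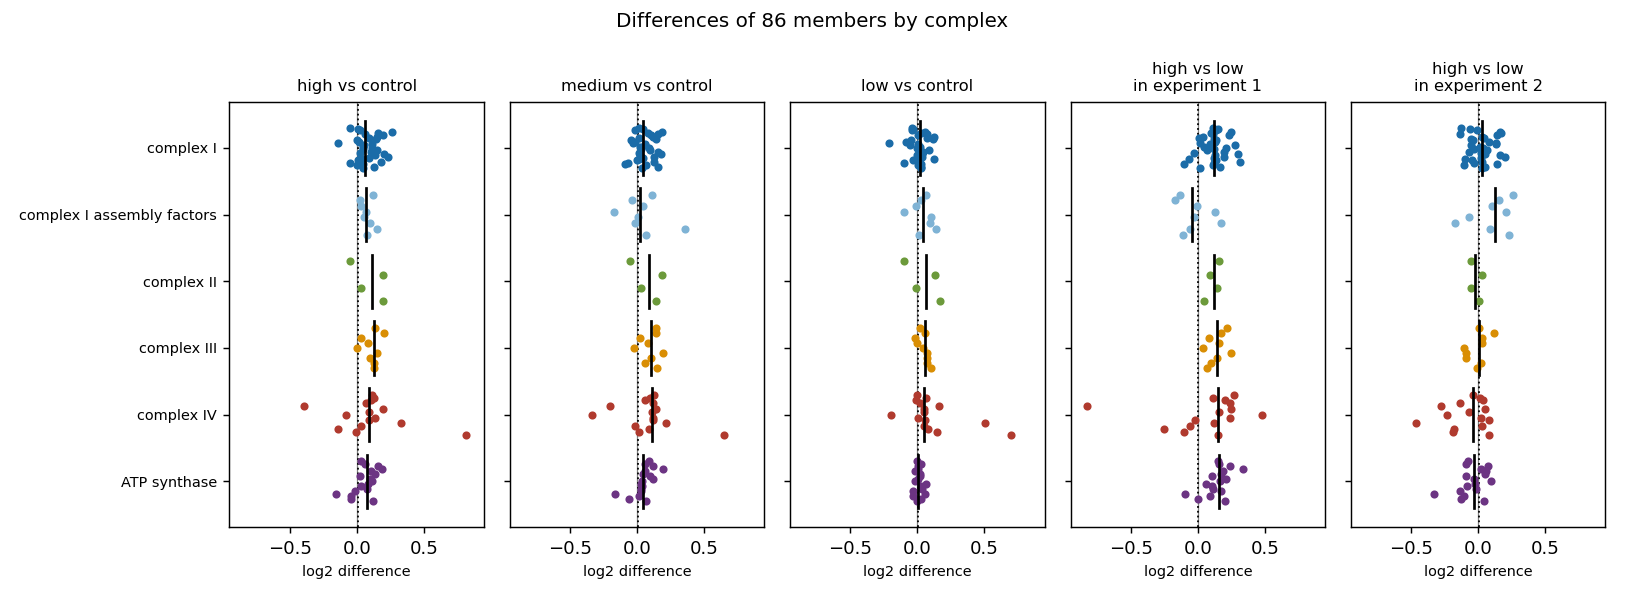
Log2 difference (x axis) of each of 86 members, grouped by complex (y axis), at each dose level against control and for high against low within each experiment; black bars are medians of a complex and dotted lines the median of all genes tested. Medians lie right of 0 in experiment 1 for high against low, except for the assembly factors at -0.04, while in experiment 2 those of the complexes lie between -0.04 and 0.02 and that of the assembly factors at 0.13.

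Comparisons between dose levels do not use the pools and had a median SE of 0.0741, against 0.105 for comparisons with control. Between high and low no member passed (0.0% of all genes), and 6 had an unadjusted p under 0.05, all higher (10.1% of all genes, in both directions): Ndufc2, Ndufa5, Ndufb9, Ndufc1, Ndufs5 and Atp5pb. Of the 86 members 71 were higher at the high level, with a median of 0.05, which was 0.03 after quantile normalization, 0.02 without the high mouse 2 of experiment 1 and 0.03 without the low mouse 1 of experiment 1. Ndufc2 was at 0.20 ± 0.08 (limma, adjusted p = 0.351), with 0.20 in experiment 1 and 0.20 in experiment 2. In experiment 1 its low mice had 13797, 16115 and 16451 and its high mice 15174, 19457 and 18691, and in experiment 2 its low mice had 11941, 11338 and 13767 and its high mice 14701, 13495 and 14316. The groups overlapped in both experiments. Ndufa5 was at 0.19 ± 0.08 and Ndufb9 at 0.18 ± 0.08, and on the lower side stood Cox6a2 (-0.55 ± 0.32), Cox8c (-0.22 ± 0.14) and Atp5md (-0.21 ± 0.14).

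Between medium and low no member passed (0.0% of all genes) and 3 had an unadjusted p under 0.05 (7.95%): Ndufv2 at 0.13 ± 0.06, Ndufaf7 at 0.22 ± 0.10 and Atp5d, the delta subunit of the ATP synthase, at 0.19 ± 0.09. On the lower side stood Ndufs3 (-0.11 ± 0.06), Atp5md (-0.22 ± 0.14) and Cox7c (-0.29 ± 0.22). Between high and medium no member passed (0.0%) and 1 had an unadjusted p under 0.05 (3.78%), Ndufaf4, an assembly factor of complex I, at 0.25 ± 0.09 (limma, adjusted p = 0.999). Ndufc1 (0.12 ± 0.07) and Ndufs8 (0.13 ± 0.09) stood next on the higher side, and Ndufaf7 (-0.20 ± 0.10), Cox8c (-0.23 ± 0.14) and Ndufa3 (-0.10 ± 0.08) on the lower side.

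The members' median for high against low was larger in experiment 1 than in experiment 2. In experiment 1, 71 of 86 members were higher, with a median of 0.12 (0.16 with arrays centred on the median, 0.07 after quantile normalization), and 12 had an unadjusted p under 0.05, all higher, against 8.75% of all genes. In experiment 2 the median was 0.01 (-0.03 with arrays centred on the median, and from -0.05 to 0.04 with 1 array left out), 46 were higher, and 2 had an unadjusted p under 0.05, against 8.7%. No member passed an adjusted p of 0.05 in limma in either. In experiment 1 the high and low mice did not overlap for 9 members that were higher (6.05% of all genes) and 1 that was lower (5.56%). In experiment 2 this held for 1 higher member (7.67%) and 6 lower ones (7.75%).

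Cox4i1, the ubiquitous isoform of a regulatory complex IV subunit, had the smallest p in experiment 1. Its signal was 25968, 26160 and 24378 in the low mice and 26974, 34586 and 31236 in the high mice, which did not overlap, a difference of 0.27 ± 0.09 (limma, adjusted p = 0.31). In experiment 2 it was 28551, 28606 and 30836 in the low mice and 29490, 28703 and 27610 in the high mice, which overlapped, at -0.04 ± 0.09. Cox6a1 had 32379, 33282 and 33418 in the low mice and 34547, 42641 and 40363 in the high mice of experiment 1, again without overlap, at 0.24 ± 0.08 (adjusted p = 0.374). In experiment 2 its low mice had 44109, 44695 and 47362 and its high mice 44132, 40964 and 38688, with overlap of the highest high mouse and the lowest low mouse, at -0.14 ± 0.08. Its other probe set was -0.05 for high against low over both experiments, against 0.05 for the one used. On the lower side of experiment 1 the smallest p belonged to Cox6a2 (-0.83 ± 0.44) and Cox8c (-0.25 ± 0.20). In experiment 2 the smallest p on the higher side belonged to the assembly factors Ndufaf8 (0.23 ± 0.09, whose high and low mice did not overlap) and Ndufaf1 (0.26 ± 0.12), and on the lower side to Cox6a1 and Cox7c (-0.46 ± 0.27).

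Of the complexes in experiment 1, 9 of 9 complex III genes, 4 of 4 complex II genes, 16 of 17 ATP synthase genes and 30 of 33 complex I genes were higher at the high level, with medians of 0.14, 0.12, 0.16 and 0.12. Complex IV was more mixed, with 10 of 15 higher, a median of 0.15 and a range from -0.83 to 0.48. The 8 assembly factors had a median of -0.04 with 2 higher. These members move together on an array, so their counts are not independent observations. The high mouse 2 had 79 of 86 members above the mean of experiment 1 and the high mouse 1 had 18, while the low mouse 1 had 11. Without the high mouse 2 the median difference in experiment 1 was 0.07 and 1 member had an unadjusted p under 0.05, and without the high mouse 1 they were 0.18 and 25. Without the low mouse 1 the median was 0.05. The within-group SD of the members' median was 0.0855. Summed hepatocyte markers moved in the same direction in experiment 1, from 337300 to 367100 in low mice and from 383900 to 439800 in high mice, but not in experiment 2, where they ran from 423500 to 442200 and from 371700 to 433200. Their part in the result was not tested.

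The test of the difference between experiments gave no member past an adjusted p of 0.05 in limma, and 8 with an unadjusted p under 0.05 (7.07% of all genes), 2 higher and 6 lower in experiment 2 than in experiment 1. The smallest p values were those of Cox6a1 (-0.38 ± 0.12, adjusted p = 0.553) and Cox4i1 (-0.31 ± 0.12, adjusted p = 0.666). For medium against low they were Ndufaf1 (0.42 ± 0.17) and Cox7a1 (-0.97 ± 0.40), and for high against medium Cox6a1 (-0.30 ± 0.12) and Ndufs8 (0.37 ± 0.16). A difference in the response of any member between the experiments is therefore not shown.

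**Figure D3:**
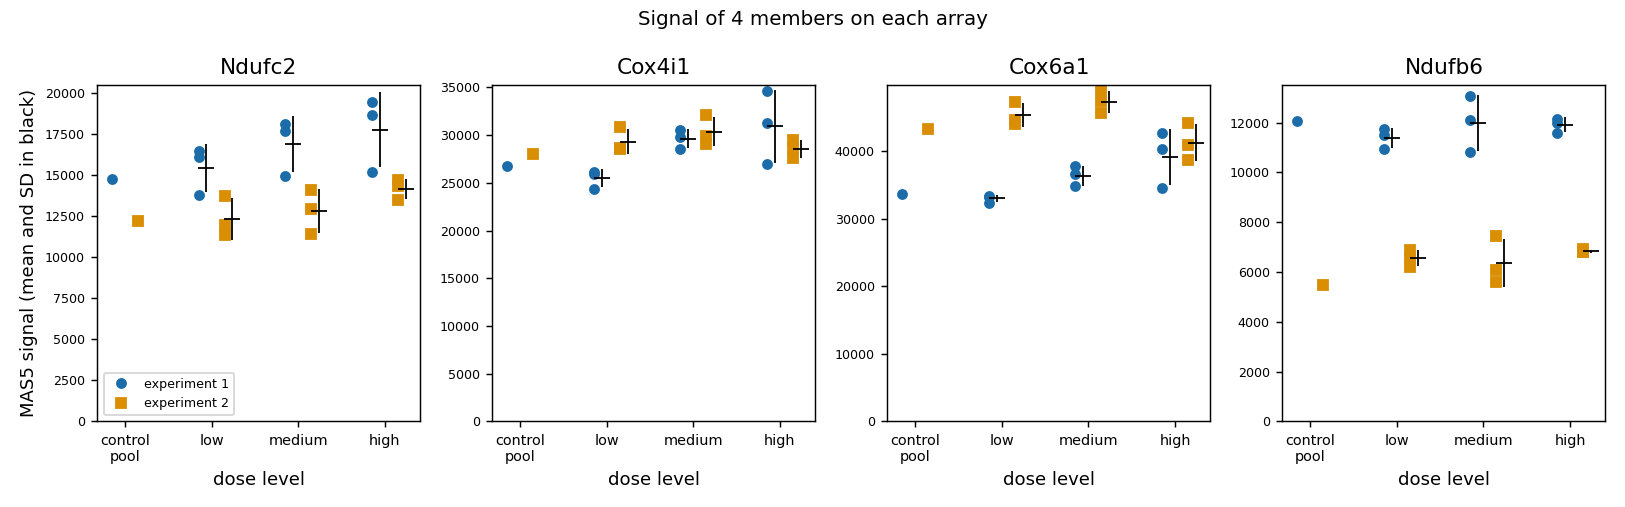
MAS5 signal (y axis, linear from 0) of Ndufc2, Cox4i1, Cox6a1 and Ndufb6 on each array by dose level (x axis), circles for experiment 1 and squares for experiment 2, with the mean and SD of 3 mice in black. High and low mice of Cox4i1 and Cox6a1 are separate in experiment 1 only, and Ndufb6 is separate between the experiments at every level.

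Members were called between the experiments but not between dose levels. Adjusting for dose level, 43 of 86 members passed an adjusted p of 0.05 in limma, 11 higher and 32 lower in experiment 2, against 42.7% of all genes. Of the 11206 genes tested, 3127 were called higher and 1659 lower. The split of directions among members depended on scaling: it was 17 higher and 16 lower with arrays centred on the median and 24 and 24 after quantile normalization. Relative to all genes the members' median was -0.17 as scaled by the authors and with that centring, and -0.10 after quantile normalization. The arrays of the experiments did not overlap for 3 higher members (6.11% of all genes) and 6 lower ones (2.31%). Duration, age at death, dose rate and the number of mice in the control pool differed together and cannot be told apart. The sample labels do not say whether the handling of the samples differed as well. Control probe sets at the 3' and 5' ends of a transcript report on RNA quality. Their ratio for Gapdh ran between 0.69 and 0.769 on the arrays of experiment 1 and between 0.871 and 0.993 in experiment 2. For actin it ran between 1.85 and 2.15 and between 2.25 and 2.61, and the part of RNA quality in these differences was not tested.

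Within complex I, the core subunits Ndufv1, Ndufs1 and Ndufs3 rose in experiment 2 and Ndufs8 fell, and with accessory subunits 5 rose and 13 fell. Ndufv1, which binds NADH and FMN, rose by 0.51 ± 0.05 (limma, adjusted p = 7.78e-08), from 7567 to 9801 in experiment 1 (median 8403) to 11080 to 13277 in experiment 2 (median 12004), with no overlap. Ndufa10 rose by 0.40 ± 0.05 and Ndufb8 by 0.25 ± 0.05. Ndufb6, an accessory subunit of the membrane arm, fell by 0.87 ± 0.06 (adjusted p = 2.09e-10), from between 10824 and 13067 (median 11863) to between 5489 and 7461 (median 6674), also with no overlap. Ndufs5 (-0.64 ± 0.06), Ndufs4 (-0.56 ± 0.06) and Ndufs8 (-0.51 ± 0.07) fell too, each without overlap of the experiments. Of the assembly factors 5 fell and 0 rose, Ndufaf4 by 0.51 ± 0.07, while its other probe set was at 0.14.

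In complex II no member passed, and the 4 values lay between -0.17 and 0.00. In complex III, the core protein Uqcrc1 rose by 0.37 ± 0.05 and Cyc1 and Uqcrfs1, the cytochrome c1 and Rieske iron-sulfur subunits that carry electrons, rose by 0.24 each, while the small subunits Uqcrb, Uqcrh and Uqcrq fell. In complex IV, Cox6a1 rose by 0.31 ± 0.05 and Cox5a, Cox5b, Cox6b1, Cox7a2 and Cox8c fell. Other probe sets past the filter did not all fall. Those of Cox5a were at 0.36 and -0.58, that of Uqcrh at 0.04 and that of Cox8c, a dim one, at 0.83. Of the 4 others of Cox5b 1 was on the higher side, while those of Cox6b1, Cox7a2 and Uqcrb were lower too. In the ATP synthase, the catalytic-head subunit Atp5a1 rose by 0.25 ± 0.05 and Atp5d rose, while 6 members fell, of which Atp5md had the largest fall (0.79 ± 0.11). Atp5b, the catalytic subunit, was at 0.04 ± 0.05.

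**Figure D4:**
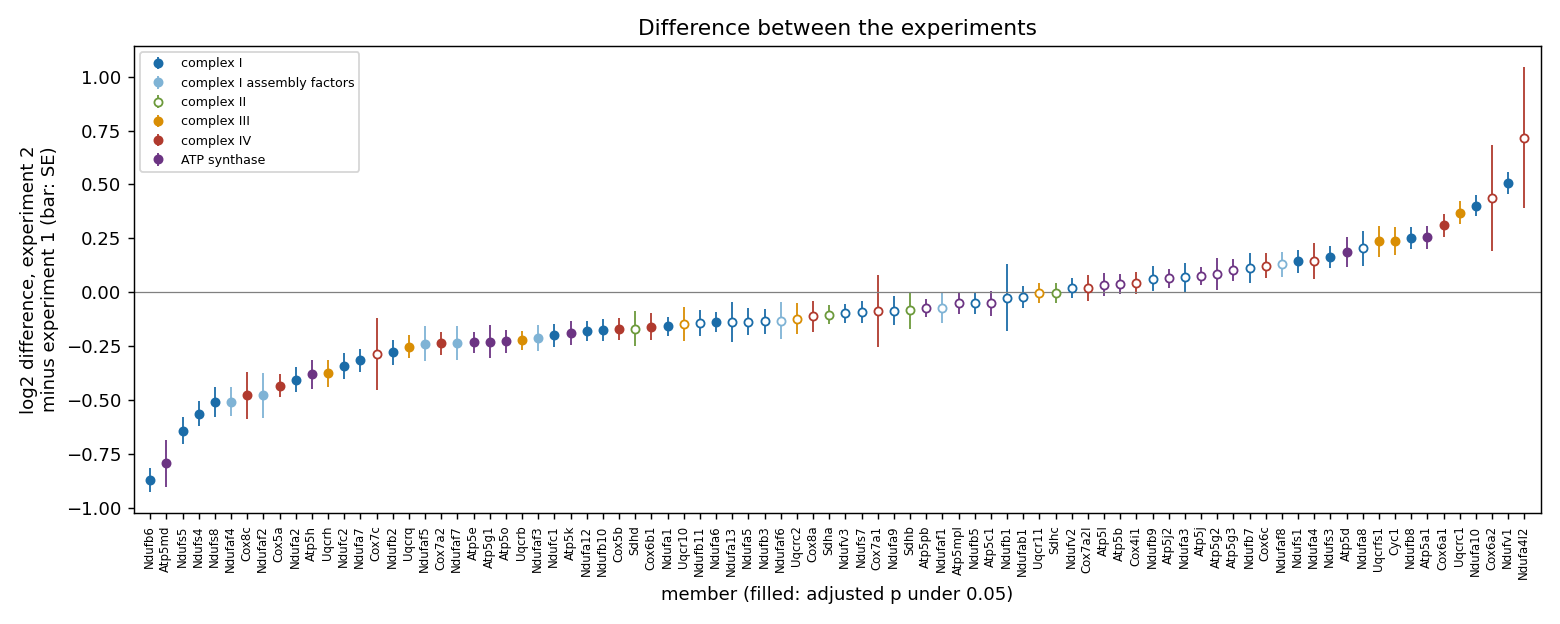
Log2 difference between experiment 2 and experiment 1 with its SE (y axis) for 86 members ordered by value (x axis), coloured by complex; filled points passed an adjusted p of 0.05. Ndufb6 lies lowest at -0.87, and the highest point that passed is Ndufv1 at 0.51.

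Probe sets of the same gene often disagreed. Of 46 members with another probe set past the filter, 20 had one of opposite sign for high against control. Among them were Atp5o, Atp5pb, Cox5a and Cox5b, whose values of opposite sign lay near 0. They were 0.03 for Atp5o, -0.03 for Atp5pb, -0.01 and -0.04 for Cox5a and -0.01 for Cox5b. The members' median SE in that comparison was 0.105, so signs this close to 0 say little. For the difference between experiments, 27 of the 46 had one of opposite sign. Of the 25 members with another probe set that were called between the experiments, 14 had a probe set of opposite sign and 11 had all of one sign. For Ndufv1 both other probe sets were higher too (0.32 and 0.29), and for Ndufb6 the other one was lower (-0.30). For Cox6a1 the other one was lower (-0.31, against 0.31), and for Ndufa10 a dim one was at -0.15 against 0.40. For Ndufaf4 too the signs differed (0.14, against -0.51). Of the 5 other probe sets of Ndufs8, 3 were on the higher side. The 3 bright probe sets of Ndufc2 gave 0.23, 0.18 and 0.21 for high against control.

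**Figure D5:**
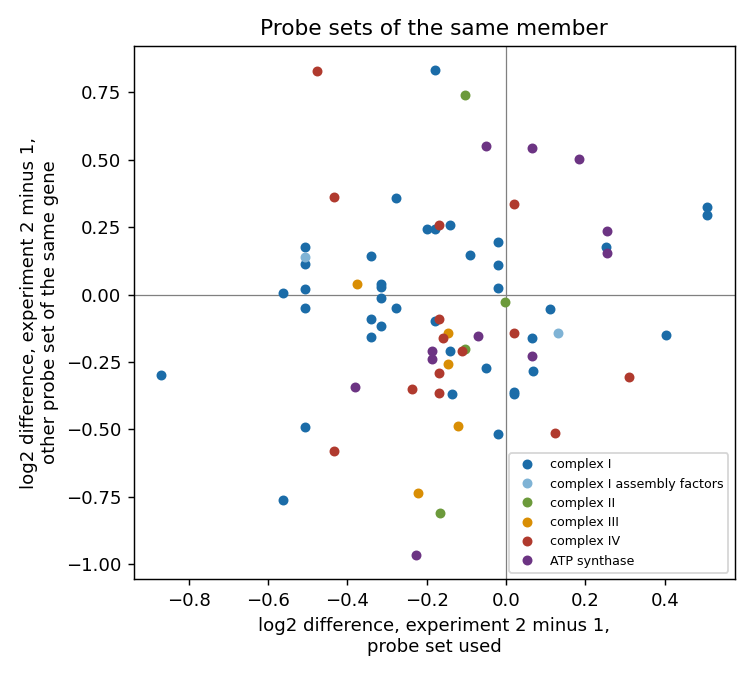
Log2 difference between experiment 2 and experiment 1 for the probe set used (x axis) and for each other probe set of the same gene past the filter (y axis), coloured by complex. Of 75 other probe sets 34 lie in the quadrants of opposite sign.

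Other genes of the pathway were counted from lists. None of their genes passed in any comparison of high, medium or low with control or of high with low. For high against control, 19 of 36 assembly factors outside the name rule were above control, with a median of 0.01, and Coa6, needed for copper delivery to complex IV, was at 0.26 ± 0.12. Among 17 electron carriers and enzymes that feed ubiquinone 15 were above, with Coq8a, a kinase-like protein of ubiquinone synthesis, at 0.36 ± 0.15. Among 17 genes of the tricarboxylic acid cycle 9 were above, and Cs, citrate synthase, was at 0.47 ± 0.14 (limma, adjusted p = 0.372) and Idh3a at 0.28 ± 0.12. Of 20 regulators of mitochondrial biogenesis 11 were above, with Ppargc1a, the coactivator PGC-1 alpha, at 0.33 ± 0.21 and Twnk at -0.21 ± 0.12. Of 10 genes on a list named for ATP export, proton leak and the ATP synthase inhibitor, 7 were above. On that list Vdac3 was at 0.28 ± 0.16 and Slc25a13, a carrier of substrates other than ATP, at -0.27 ± 0.12. ND5, a complex I core subunit and the one mitochondrial-genome probe set tested, was at 0.22 ± 0.09 (adjusted p = 0.622).

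Ribosomal protein genes served as other abundant, steady genes. For high against control 52 of 76 mitochondrial ones and 40 of 46 cytosolic ones were above control, with medians of 0.05 and 0.08, against 0.09 for the members. Between experiments 16 mitochondrial ribosomal genes rose and 26 fell, and 2 cytosolic ones rose and 24 fell. Of all 11206 genes tested 3127 rose and 1659 fell. Of the assembly factors outside the name rule 7 rose and 13 fell, and of the electron carriers 8 rose and 1 fell, which was Cycs, somatic cytochrome c (-0.73 ± 0.06). Of the biogenesis regulators 6 rose, with Ppargc1a at 0.53 ± 0.12 and Nrf1 at 0.47 ± 0.11, and 3 fell. Of the tricarboxylic acid cycle 4 rose and 2 fell, and of the list named for ATP export 1 rose and 1 fell.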

How the data were processed

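Liver RNA of 20 arrays was measured as Affymetrix signal intensity, which the authors computed with MAS5 per the submitters' processing notes and deposited on a linear scale; in the sources used here the MAS5 version is not given. The authors' scaling, a trimmed mean of 500.0 on every array (2.0% off each end), was kept. The table had 0 columns without a sample. Of 45101 probe sets, 34945 had 1 gene symbol, 932 several and 9160 none, and 64 were controls. Signals became log2(signal + 7.12), the constant being the 10th percentile, which understates changes of dim probe sets. Probe sets with a mean under 84.9, the median probe set, were dropped, and the brightest per gene was kept.

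Linear models were fitted in R 4.3.3 with limma 3.58.1, its eBayes step allowing the variance to depend on signal. One model had additive effects of level and experiment over the 20 arrays, with 15 residual degrees of freedom; values within an experiment and interactions came from a model of 8 groups, with 12. Tests were two-sided with Benjamini-Hochberg adjustment over all 11206 genes. Errors are SE of a difference. The fit was tested on simulated data of 11206 genes. For high against control it found 61 of 100 genes simulated at 2-fold, 93 of 100 at 4-fold and 8 false ones; for high against low it found 78, 97 and 8. The number of arrays limits precision. A p-value reflects only how these samples vary, since the pools hide variation between control mice. Alternatives covered the pseudocount, filter, scaling, array weights, probe set choice, variance model, terms and arrays in the fit, single experiments, the replicate block and each array left out.

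The members and gene lists were chosen with earlier results of these data known. Members are named as the 3 smallest p in each direction per comparison of levels. Between experiments they are the 6 largest rises and falls among members that passed. Also named are the 2 smallest p per interaction between levels and per direction within experiments. Extremes of signal and spread per complex, complex IV isoforms and up to 4 members with disagreeing probe sets are named too. From each list up to 2 genes are named by p in high against control. Further ones were named after their values were seen. Replicate numbers were not taken to pair mice. Of same-number pairs, 7 of 18 had correlated deviations over 0.1 (-0.154 to 0.307). Pairs of different numbers were not compared, so this does not show whether the numbers pair the mice.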

Additional observations from a re-analysis of the deposited data

How the results depend on the processing

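Between experiments, the count of members past the threshold was 33 with arrays centred on the median, 48 after quantile normalization and from 40 to 46 otherwise, against 43. Over all comparisons the count stayed within 1.5 times the reported one, or at 0, in 693 recomputed values and moved in 1: with arrays weighted by their mice, medium against control called 1 member (Ndufaf7, adjusted p = 0.0487). That weighting called 374 genes in all for high against control, 267 for medium and 46 for low, against 9, 4 and 1. With arrays centred on the median, the members' median for high, medium and low against control became -0.0137, -0.0287 and -0.0729. Within experiments it became 0.0283 and -0.0572 for high in experiments 1 and 2, -0.05665 for medium in experiment 2 and -0.135 for low in experiment 1, and the interactions of high and of medium against low became -0.219 and -0.178. Centring moves every gene alike. Relative to all genes the members' median stayed at 0.08, 0.05 and 0.02 for high, medium and low against control. Why the array medians differed was not tested. Of recomputed values of named members 1845 kept their side and 12 changed sign, all 12 of members that had not passed. For high against control, Cox8c was 0.134 in experiment 1 alone and ran from -0.417 to 0.137 with 1 array left out. In experiment 1 alone, Atp5md was 0.0421 for medium against control and 0.0187 for medium against low, and for high against medium Ndufs8 was -0.0569 and Ndufa3 0.0653. Preferring probe sets without _s or _x suffixes put Ndufa3 at 0.0125 and, for low against control, Ndufab1 at 0.0756. For low against control with 1 array left out, Cox7c ran from -0.08918 to 1.095 and Ndufab1 from -0.183 to 0.0114, and in experiment 2 alone Sdha was 0.00685 and Ndufab1 0.00772. With the replicate block, the medians for high against low, medium against low and high against medium were 0.05, 0.05 and 0.02 with 0 members called. The numbers were not shown to pair the mice. Precision is limited by the number of arrays: the median 95% interval of a member reached 0.218 to either side for high against control.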
